A study of Homo sapiens with 18 samples.

Results

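In wild-type A549 cells, 584 chromatin regions carried a peak in both CUT&Tag libraries made with an antibody against YTHDF1 and in neither library made with an antibody against ARID1A. They were taken from 130856 regions, obtained by merging the peaks of the 4 wild-type lists on chromosomes 1 to 22 and X, and made up 0.446% of them. Of the 13558 merged regions that both wild-type anti-YTHDF1 lists held, they were 4.31%, and together they spanned 963.5 kb. The regions were selected on the presence and absence of wild-type peaks, so wild-type values are given as a description only. The other 8 lists played no part in the choice. A list held a region when it had a peak sharing at least 1 bp with it.

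A549 is a line derived from a human lung carcinoma. In CUT&Tag an antibody bound in permeabilised cells recruits a transposase that cuts and tags the DNA nearby. The groups read here were YTHDF1-KO cells, in which the YTHDF1 gene was knocked out, siARID1A cells, in which ARID1A was knocked down with siRNA, and unmodified WT cells, all A549. Each was profiled with anti-YTHDF1 (Abcam, ab220162) and with anti-ARID1A (CST, 12354), in 2 replicates. The labels do not say whether the knockout is 1 clone, which siRNA was used, how much protein was left, or whether the 2 replicates of a group were grown apart. The spread that a p-value rests on here may therefore be technical. IgG libraries were not analysed here.

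YTHDF1 is a reader of N6-methyladenosine (m6A) on RNA and is known best from the cytoplasm, where it acts on translation and decay of its target transcripts. It has no known sequence-specific DNA-binding domain. ARID1A is the large, DNA-contacting subunit of the canonical BAF form of the SWI/SNF remodelling complexes, which open chromatin at enhancers and promoters. The study profiled both proteins on chromatin, and the 584 regions are the places where WT anti-YTHDF1 signal was called without anti-ARID1A signal. Both WT anti-YTHDF1 lists hold all of them by rule.

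The anti-YTHDF1 lists of YTHDF1-KO and siARID1A cells held 46225 to 59632 peaks and covered 57.8 to 81.7 Mb. The anti-ARID1A lists covered 241 and 234 Mb in YTHDF1-KO cells and 99.0 and 128 Mb in siARID1A cells. The WT anti-YTHDF1 libraries were unequal, with 89.6 Mb in replicate 1 and 49.3 Mb in replicate 2. Sequencing depth is unknown. Of genes that mark epithelium, KRT8 and KRT19 had a peak within 1 kb of their start in 12 of 12 lists, KRT18 in 11, CDH1 in 10 and EPCAM in 7. Of haematopoietic genes, CD3E had one in 4 lists and PTPRC in 0, a check that is incomplete and does not establish the cell type. Peaks at a gene do not measure its product, so the knockout and the knockdown could not be checked from these lists. The YTHDF1 gene itself carried a peak in all 12 lists and ARID1A in 9.

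Only 1 of the 584 regions contained a whole annotated promoter window, and it is shown because it is the single place where promoter sequence could be read under such a region. The region, chr6:31971774-31973928, lies over the divergent starts of DXO and WHR1. DXO encodes an enzyme that removes incomplete caps from RNA and degrades it, and WHR1, formerly STK19, encodes a winged-helix protein of transcription-coupled DNA repair. The 250 bases before the DXO start (RefSeq, GRCh38.p14, minus strand, chr6:31972139-31972388) are printed 5′ to 3′, with matches on either strand in capitals. The 8 words searched were GGGCGG, a core of GC boxes, CCGGAAG, a core of ETS sites, the CCAAT box, GGACT, the DNA form of a common m6A motif of RNA, the AP-1 word TGANTCA, the E-box word CACGTG, the TATA word TATAAA and a run of G, GGGGG.
DXO: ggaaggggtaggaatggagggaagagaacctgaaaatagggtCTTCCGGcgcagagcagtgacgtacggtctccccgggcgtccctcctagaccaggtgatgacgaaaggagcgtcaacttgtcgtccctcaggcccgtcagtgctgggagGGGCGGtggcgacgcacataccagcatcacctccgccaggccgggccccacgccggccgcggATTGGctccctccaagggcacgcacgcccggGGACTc
Each of the first 4 words matched once, the matches do not overlap one another, and the other 4 words had no match. This stretch had 66.4% G and C and 22 CpG pairs. Over the 22132 RefSeq promoter windows of 300 bases, the GGGCGG word was in 56.3%, the ETS word in 12.8%, CCAAT in 34.6% and GGACT in 45.3%, against 6.15% for TGANTCA, 8.34% for CACGTG, 9.46% for TATAAA and 65.5% for GGGGG, and a match is a description of the letters only. Peaks here were at percentile 43.6 of total signal in siARID1A anti-YTHDF1 replicate 2 and 4.51 in siARID1A anti-ARID1A replicate 1, against 70.1 and 73.1 in the WT anti-YTHDF1 lists. The remaining 6 lists of YTHDF1-KO and siARID1A cells had none, so the region recurred in 1 of 4 anti-YTHDF1 lists.

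Mature microRNAs lay wholly inside 2 of the regions. They are printed from RefSeq (GRCh38.p14) with the seed, bases 2 to 8, in capitals.
hsa-miR-4441: aCAGGGAGgagauugua
hsa-miR-10396a-5p: gGCGGGGCucggagccggg
The seeds differ. MIR4441 lies inside HDAC4, at chr2:239085828-239085844 on the minus strand, in a region of 1849 bp that was held by both siARID1A and neither YTHDF1-KO anti-YTHDF1 list. The 5p arm of MIR10396A lies at chr21:8987617-8987635 on the plus strand, while the 3p arm starts at base 8987645, beyond the end of the region at base 8987636. That region was held by 1 of the 4 other anti-YTHDF1 lists and by no anti-ARID1A list. No sequence of the other regions is given, since a genome of this build was not used here.

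The 584 regions were narrow, low and mostly far from promoters. Their median width was 1550 bp, against 6286 bp for the 12190 regions that all 4 WT lists held and 1734 bp for all merged regions. The median height of their WT anti-YTHDF1 peaks was 4 steps in both replicates, a step being the smallest increment of signal in a list, and the lowest peak in every list was 2 steps high. The highest reached 16 steps in replicate 1 and 17 in replicate 2. Ranked by total signal within each list, with 100 for the strongest peak, their medians were percentile 39.3 and 42.9 in WT replicates 1 and 2. Regions of all 4 WT lists had medians of 78.7 and 70.9 there, and the 18919 regions of 1 WT anti-YTHDF1 and no WT anti-ARID1A list had 25.9 and 31.5.

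The WT replicates often marked different parts of a region. In 569 of the 584 regions each WT replicate had 1 peak, and the stretch covered in both replicates was a median of 49.1% of the region. The places of highest signal lay a median of 332 bp apart, and were within 200 bp of each other in 33.6% of regions. Among regions of 1 to 2 kb, the share within 200 bp was 34.2% of 392, against 57.8% of 403 regions of all 4 WT lists.

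**Figure D1:**
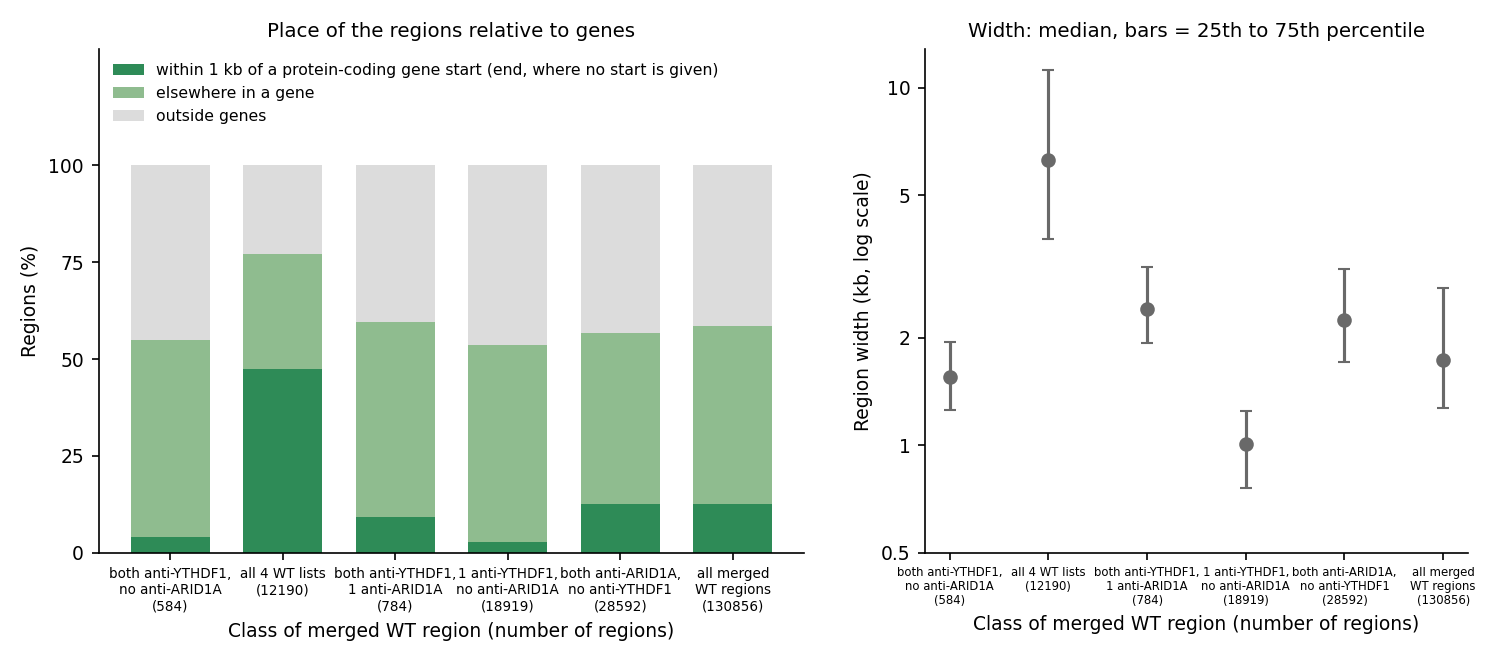
Place relative to genes (left, percent of regions) and width (right, kb on a log scale, median with 25th to 75th percentile) of the merged WT regions in each class. The 584 regions of both anti-YTHDF1 and no anti-ARID1A list have 4.11% at gene starts, against 47.5% for regions of all 4 WT lists, and are narrower than those.

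Within 1 kb of a protein-coding gene start lay 24 regions, 4.11%, against 12.6% of all merged regions and 47.5% of the regions of all 4 WT lists. Of these 24, 15 were placed by a gene end alone, because the promoter table gives no start for those genes. A further 297 regions, 50.9%, lay elsewhere in a gene and 263, 45.0%, outside genes. The median distance to a start was 29.9 kb, against 2.19 kb for regions of all 4 WT lists. Regions of 1 WT anti-YTHDF1 list had 2.77% at starts.

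The 24 gene-end and gene-start regions touched 25 genes. They include CLSPN, an adaptor of the replication checkpoint, SEC22B, a SNARE of the secretory pathway, DCAF1, a receptor of a CUL4 ubiquitin ligase, VPS53, a subunit of a tethering complex for endosomal vesicles, and VTCN1, the B7-H4 immune checkpoint ligand. Others belong to multi-gene families, among them USP17L20 and USP17L25, FAM90A5 and FAM90A8, TBC1D3B and GAGE12D. The GAGE12D promoter window in the table is shared base for base by 7 other GAGE genes, so reads there cannot be assigned to a single copy from sequence alone. The TBC1D3B window, compared base by base without gaps, matched that of no other gene by more than 38.3%. This comparison misses copies whose start is placed at a shifted base or is not in the promoter table. It therefore cannot show that reads there have a single source.

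None of the 10 gene lists examined had a gene start under one of the 584 regions. They covered m6A machinery, SWI/SNF subunits, R-loop resolution, interferon-stimulated genes, nucleic acid sensing, MHC class I presentation, NRF2 targets, neuronal genes, lung epithelium, and AP-1 and ATF factors, with 19 to 30 matched genes each. Over all 19974 protein-coding genes the share was 0.125%, or 25 genes. Regions of all 4 WT lists lay at 35.5% of all protein-coding genes. For these regions 7 of the gene lists were above that share, up to 15 of 21 AP-1 and ATF genes, and 3 were below it, namely 8 of 30 interferon-stimulated genes, 8 of 30 neuronal genes and 6 of 19 MHC class I presentation genes.

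Many of the regions lay close to anti-ARID1A peaks. The nearest WT anti-ARID1A peak was a median of 2652 bp away and between 1 bp and 1.27 Mb. Just inside the rule, 17 regions had one under 100 bp away, of which the other anti-YTHDF1 lists held a mean of 30.9% and the other anti-ARID1A lists 38.2%. Just outside it, 11 regions of both anti-YTHDF1 lists overlapped a peak of 1 anti-ARID1A list by under 100 bp, and those shares were 34.1% and 54.5%.

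About 3 in 10 of the regions were found again by any given anti-YTHDF1 list. YTHDF1-KO lists held 27.4% and 28.4% of them, and siARID1A lists 30.5% and 28.1%, giving a mean of 28.6% ± 1.33 (SD, n = 4 lists). Over all merged regions these lists held 18.7% and 17.8% in YTHDF1-KO cells and 22.5% and 22.8% in siARID1A cells. The 4 shares of the 584 regions all exceed those of all merged regions in the same list, and the conditions overlap.

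The anti-YTHDF1 shares in cells whose YTHDF1 gene was knocked out, 27.4% and 28.4%, overlapped those in siARID1A cells, 30.5% and 28.1%. The difference, YTHDF1-KO minus siARID1A, was -1.37 percentage points (exact permutation test, two-sided, p = 0.667). With 2 lists against 2 the smallest p is 0.333, so a difference could not pass the threshold. Its sign was not stable, and without chromosomes 2, 9 and 17 it was 0.33 points.

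Anti-ARID1A lists of the modified cells also held many of the regions. YTHDF1-KO lists held 36.3% and 32.9%, and siARID1A lists 15.6% and 18.8%, beside 52.1%, 52.3%, 29.9% and 34.8% over all merged regions. All 4 shares lie below those for all merged regions in the same list, a set that holds wider regions. Among regions of 1 to 2 kb the shares lay closer. They were 35.2%, 33.2%, 15.1% and 17.3%, beside 36.5%, 36.6%, 14.7% and 18.7% for all merged regions of that width. In siARID1A replicate 1 the order was reversed. Over all widths, YTHDF1-KO minus siARID1A was 17.4 points (exact permutation test, two-sided, p = 0.333, the smallest 2 lists against 2 can give). The conditions did not overlap. The anti-ARID1A lists of siARID1A cells also covered fewer Mb of the genome. With each list cut to the same number of peaks the difference was 1.80 points (exact permutation test, two-sided, p = 0.333).

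Over the 8 lists as deposited, with both conditions pooled, the mean difference between the antibodies was smaller than the SD of the anti-ARID1A lists. Anti-YTHDF1 lists held 28.6% ± 1.33 and anti-ARID1A lists 25.9% ± 10.2 (SD, n = 4 lists each), a difference of 2.70 points (exact permutation test, two-sided, p = 0.571). Without siARID1A anti-ARID1A replicate 1 the difference was -0.742 points. The anti-ARID1A SD spans both conditions, with means of 34.6% in YTHDF1-KO and 17.2% in siARID1A cells. Within each condition the shares of the antibodies did not overlap, and the signs were opposite. Anti-YTHDF1 minus anti-ARID1A was -6.68 points in YTHDF1-KO and 12.1 points in siARID1A cells. The pooled test permuted lists across conditions, so it does not address the antibodies within a condition. The values changed when list length was made equal. With each of the 8 lists cut to its 46225 strongest peaks by total signal, the length of the shortest, anti-YTHDF1 lists held 25.7% and 28.4% in YTHDF1-KO and 26.4% and 24.5% in siARID1A cells. Anti-ARID1A lists then held 10.4% and 9.59% in YTHDF1-KO and 8.56% and 7.88% in siARID1A cells. Over all merged regions these shares were 17.5%, 17.8%, 18.8% and 19.5% with anti-YTHDF1 and 31.6%, 30.2%, 21.7% and 23.5% with anti-ARID1A, in the same order. The 4 anti-YTHDF1 values all lay above the 4 anti-ARID1A values, with a difference of 17.1 points (exact permutation test, two-sided, p = 0.0286, the smallest 4 lists against 4 can give). The rule asked for this order of the antibodies in WT cells, so the test cannot tell it apart from the choice of regions. The weakest peaks kept by the cut stood at percentile 35.1 to 56.8 of the deposited anti-ARID1A lists. In the anti-YTHDF1 lists they stood at 0.0638 to 22.5.

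The order was the opposite over all merged WT regions, a set built from more anti-ARID1A than anti-YTHDF1 peaks. The WT anti-ARID1A lists had 92343 and 100729 peaks and the WT anti-YTHDF1 lists 57764 and 40562. The order in this set cannot be told apart from that make-up. With lists of equal length, 18.4% ± 0.919 of all merged regions were held by anti-YTHDF1 and 26.8% ± 4.89 by anti-ARID1A lists (SD, n = 4 lists each), a difference of -8.37 points (exact permutation test, two-sided, p = 0.0286). For regions of all 4 WT lists the means were 74.98% and 87.2%. The order of the 584 regions was shared by regions of both WT anti-YTHDF1 lists and 1 WT anti-ARID1A list, with 37.9% and 26.3%, and by regions of 1 WT anti-YTHDF1 list, with 5.44% and 3.18%. With only peaks at or above the median total signal of their list, WT lists included, the rule was applied anew. The 357 regions that met it can lie outside the 584, since a weaker WT anti-ARID1A peak no longer excluded a region. The difference between the antibodies was 16.3 points there (exact permutation test, two-sided, p = 0.0286). It, too, cannot be told apart from the rule.

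**Figure D2:**
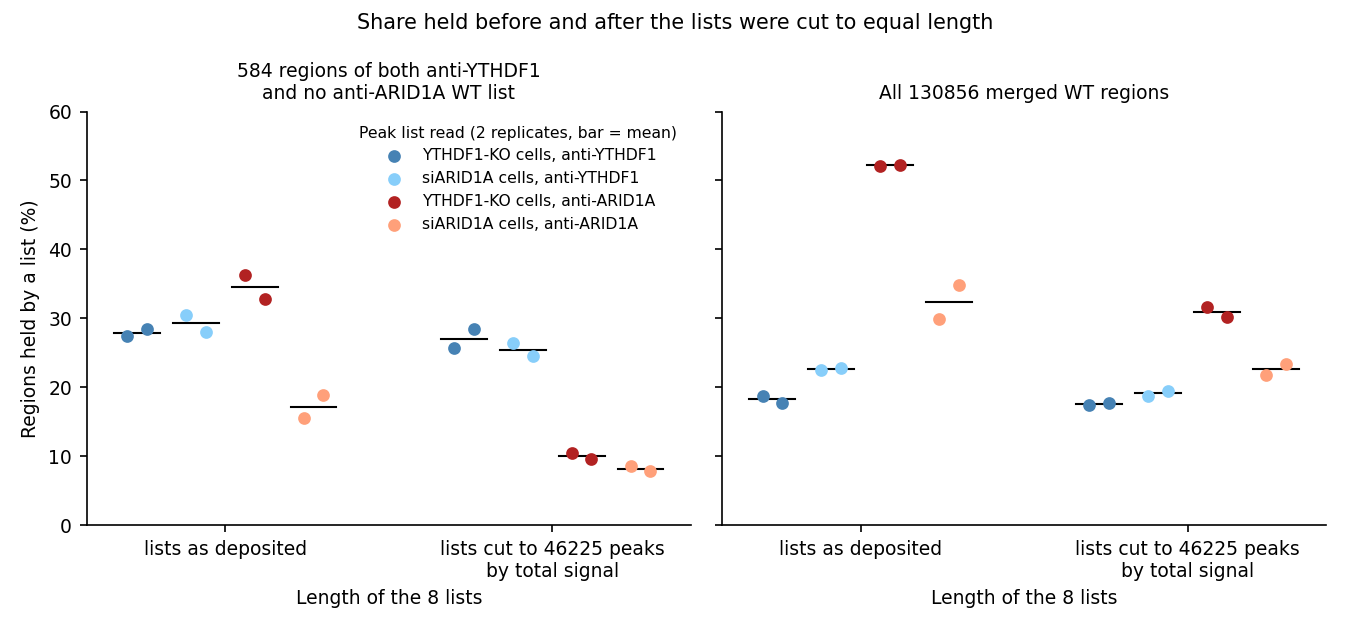
Percent of regions held by each of the 8 lists of YTHDF1-KO and siARID1A cells, for the 584 regions (left) and all merged WT regions (right), with lists as deposited and cut to 46225 peaks; points are replicates and bars means. After cutting, the 4 anti-YTHDF1 lists hold 24.5% to 28.4% of the 584 regions and the 4 anti-ARID1A lists 7.88% to 10.4%.

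The regions came back less often than those that all 4 WT lists held. The 4 anti-YTHDF1 lists of YTHDF1-KO and siARID1A cells held 27.4% to 30.5% of the 584 regions and 72.0% to 83.2% of regions of all 4 WT lists, a difference of -48.9 points (exact sign-flip permutation test over 4 lists, two-sided, p = 0.125, the smallest possible), lower in 4 of 4 lists. The size of the difference depended on the overlap asked for. When at least 50% of a region had to be covered, the shares were 16.99% for the 584 regions and 17.9% for regions of all 4 WT lists. Among regions of 1 to 2 kb, under the same reading, they were 16.8% of 392 and 42.7% of 403.

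Compared with regions of 1 WT anti-YTHDF1 list and no WT anti-ARID1A list, the 584 regions were held more often by 22.1 points, in 4 of 4 anti-YTHDF1 lists (exact sign-flip permutation test, two-sided, p = 0.125, the smallest possible). That class had a mean of 6.48%. It was narrower, with a median width of 1010 bp. At 1 to 2 kb the means were 25.2% and 7.35%. Regions of both WT anti-YTHDF1 lists and 1 WT anti-ARID1A list lay above the 584 regions, with 41.7% held by anti-YTHDF1 lists.

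**Figure D3:**
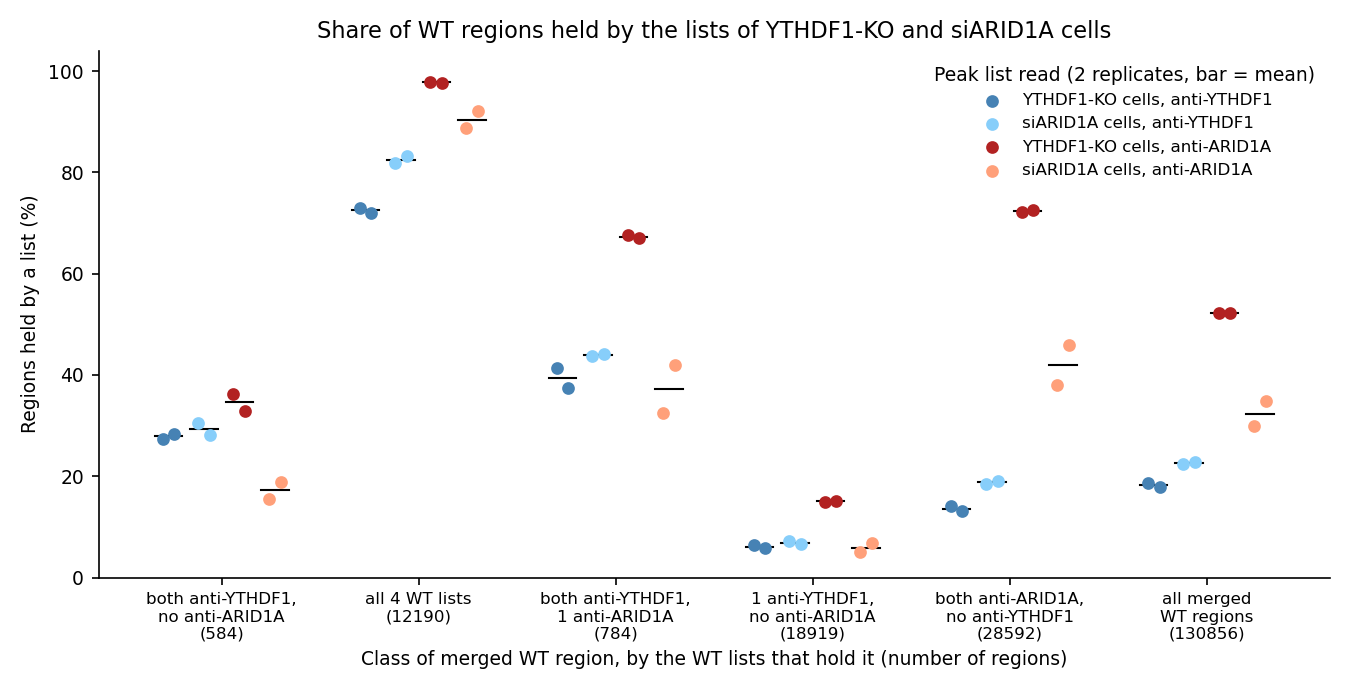
Percent of regions held by each list of YTHDF1-KO and siARID1A cells, by the WT lists that hold the region; points are replicates and bars means. The 584 regions of both anti-YTHDF1 and no anti-ARID1A WT list sit between 15.6% and 36.3%, while 72.0% to 97.9% of regions of all 4 WT lists are held.

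Taken region by region, recurrence was graded. No other anti-YTHDF1 list held 244 of the regions, 41.8%, against 58.0% of all merged regions. Another 153 were held by 1, 84 by 2, 65 by 3 and 38 by all 4 lists, the last being 6.51%, against 6.49% of all merged regions. For 1, 2 and 3 lists the share over all merged regions was not computed. None of the 8 lists held 139 regions, 23.8%, against 26.3% of all merged regions. All 4 anti-ARID1A lists held 20 regions, 3.42%, against 20.0% of all merged regions. All 8 lists held 7, or 1.20%, a share that was not computed over all merged regions.

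Regions that more anti-YTHDF1 lists held were also held more often by anti-ARID1A lists. An anti-ARID1A list held 43.0% of the 244 regions that no other anti-YTHDF1 list held, and 62.1%, 66.7%, 76.9% and 89.5% of those held by 1, 2, 3 and 4 such lists. The WT percentile, a value of the rule, had medians of 34.7, 40.9, 46.3, 52.1 and 69.99 over the same steps. Median widths were 1483, 1563, 1506, 1630 and 1938 bp. At a gene start lay 10 of the 244 regions held by no such list, 10 of the 153 held by 1, 2 of the 84 held by 2, 2 of the 65 held by 3 and 0 of the 38 held by 4.

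**Figure D4:**
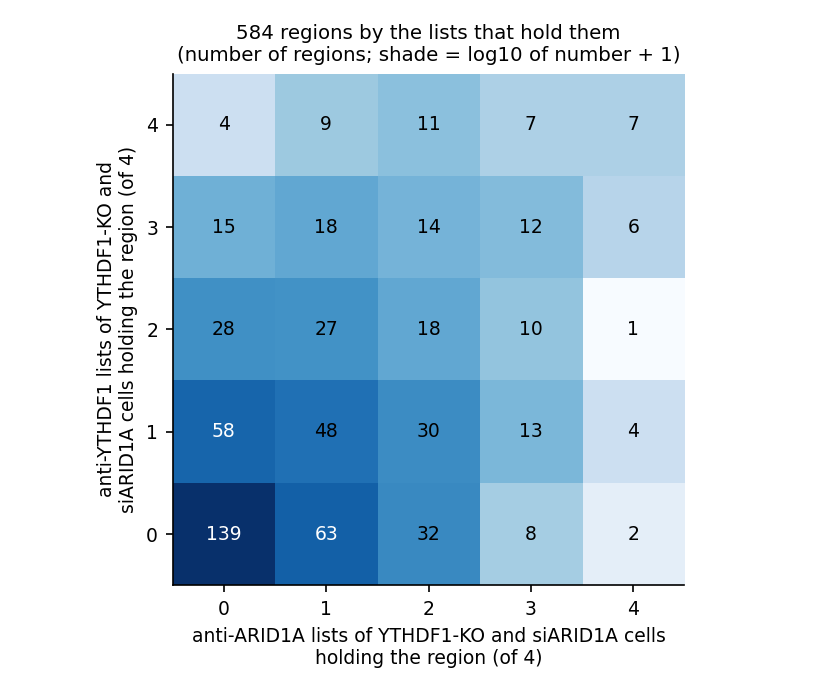
Number of the 584 regions by how many of the 4 anti-YTHDF1 lists (vertical axis) and 4 anti-ARID1A lists (horizontal axis) of YTHDF1-KO and siARID1A cells hold them; shade is the log10 of the number plus 1. The largest cell, 139 regions, is held by no list, and 4 regions are held by all 4 anti-YTHDF1 and no anti-ARID1A list.

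Only 4 regions were held by all 6 anti-YTHDF1 lists of the study and by none of the 6 anti-ARID1A lists. This was 0.685% of the 584. Read in the YTHDF1-KO and siARID1A lists alone, whatever the WT lists held, the pattern was met by 30 of all merged regions, 0.0229%. Of these 30, 11 were regions of 1 WT anti-YTHDF1 and no WT anti-ARID1A list, 0.0581% of that class. All of the 30 but these 11 and the 4 had a WT anti-ARID1A peak. The shares are therefore not like for like, since the 584 were chosen without WT anti-ARID1A peaks. The 4 regions of the 584 all lie inside NBPF20, within 62.4 kb. NBPF20 encodes a protein of many Olduvai (DUF1220) repeats and belongs to a primate-expanded family of near-identical genes in segmental duplications of chromosome 1, for which the gene table has 23 symbols.

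The strongest of the 4, chr1:145353730-145355576, stood at percentile 99.2 and 89.8 in YTHDF1-KO, 91.0 and 76.6 in siARID1A and 76.6 and 85.0 in WT anti-YTHDF1 lists. The next, chr1:145347622-145350625, stood at 99.2 and 84.6 in YTHDF1-KO, 69.9 and 61.7 in siARID1A and 81.3 and 95.3 in WT lists. In YTHDF1-KO replicate 1 both are parts of 1 peak that spans 3 of the regions. The other two, chr1:145293196-145295461 and chr1:145316364-145317803, stood between percentile 28.2 and 96.6 over the 6 lists. Their peaks were 3 to 7 steps high in these lists. With lists of equal length the same pattern was met by 18 of the 584 regions, 3.08%. Over all merged regions, read without regard to the WT lists, the share was 0.0963%. Of the 18, 6 lay in NBPF20 and 15 lay under 100 kb from another of the regions or near a long gene-free stretch of the chromosome, and 14 were held by an anti-ARID1A list as deposited. The 3 others lie in KALRN, a guanine nucleotide exchange factor, in BOP1, a ribosome biogenesis gene, and at chr22:21501498-21503822, and were picked out after their values were seen.

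NBPF20 held 10 of the 584 regions, between chr1:145293196 and chr1:145377998. Each of the 4 anti-YTHDF1 lists of YTHDF1-KO and siARID1A cells held 90% of them. Anti-ARID1A lists held 40% and 40% in YTHDF1-KO and 20% and 20% in siARID1A cells. The gene, at chr1:145289900-145425603, had 27 merged regions, of which 4 were held by all 4 WT lists. The sources used here do not give how reads that match several NBPF copies were placed.

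Groups like this were common among the regions that came back. Another of the 584 regions lay under 100 kb from 154 of them, and these were held at a mean of 44.5% by anti-YTHDF1 and 29.4% by anti-ARID1A lists. The 430 with none so near were held at 22.9% and 24.7%. Groups of 3 or more numbered 20 and contained 78 regions, held by anti-YTHDF1 lists at 55.8%. This split was chosen after the values were seen and has no test.

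Besides NBPF20, 7 groups had 4 or more regions. At chr4:49091290-49147001, 6 regions were held at 87.5% by anti-YTHDF1 and 41.7% by anti-ARID1A lists. TTC34, a tetratricopeptide-repeat gene, had 4 regions at chr1:2689486-2760315, with 93.8% and 37.5%. At chr20:31060611-31076305, 5 regions were held at 90% and at 100%, so anti-ARID1A lists held each of them outside WT cells. The remaining groups came back less often. At chr10:40440928-40644987, 5 regions had 50% and 25%, and 4 at chr20:64133665-64272151 had 62.5% and 12.5%. Groups of 4 at chr14:24177408-24320420 and chr2:231822788-231853472 were held at 25% and 31.3% by anti-YTHDF1 and at 25% and 18.8% by anti-ARID1A lists. Of the 12 groups of 3, that at USP17L25, a deubiquitinase of a multi-gene family, had 50% and 8.33%, and that at the GAGE cancer-testis antigens on X had 50% with both antibodies. Over the other 10 the anti-YTHDF1 share ran from 0% to 66.7%.

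The longest stretch without an annotated gene on each chromosome was used in place of a centromere annotation. Within 1 Mb of it lay 47 regions, 8.05%, against 1.08% of all merged regions. Anti-YTHDF1 lists held a mean of 55.3% of these and 26.3% of the rest, and anti-ARID1A lists 39.4% and 24.7%. Related classes showed the same order for anti-YTHDF1 lists. Regions of both WT anti-YTHDF1 lists and 1 WT anti-ARID1A list had 3.95% so placed, held at 73.4% near a stretch and 40.4% elsewhere, and regions of 1 WT anti-YTHDF1 list had 2.56%, held at 18.5% and 6.16%. Of the 38 regions of all 6 anti-YTHDF1 lists, 8 lay in NBPF20, 3 in TTC34 and 11 near a gene-free stretch, and 30 were grouped or near such a stretch. Of the 244 held by no other anti-YTHDF1 list, 44 were.

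**Figure D5:**
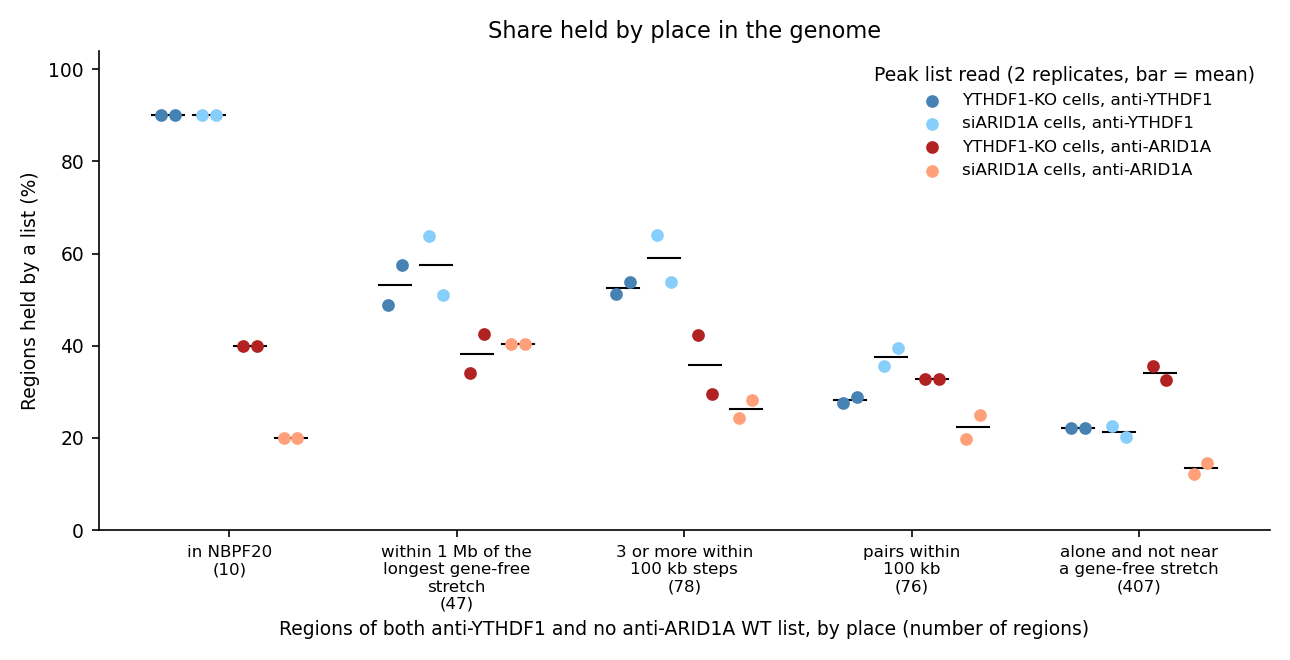
Percent of the 584 regions held by each list of YTHDF1-KO and siARID1A cells, by place; points are replicates and bars means, and the first 4 places can share regions. The 10 regions in NBPF20 are held at 90% by each anti-YTHDF1 list, against 20.1% to 22.6% for the 407 regions that are neither grouped nor near a gene-free stretch.

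Without grouped and gene-free-stretch regions, 407 were left. Anti-YTHDF1 lists as deposited held 22.1% and 22.1% of them in YTHDF1-KO and 22.6% and 20.1% in siARID1A cells, a mean of 21.7%, against 23.8% for anti-ARID1A lists. With lists of equal length, the means were 19.3% and 7.37%, so the order of the antibodies was that of all 584. Over the other 177, equal lists gave 42.2% and 13.1%. Of the 407, 8 were held by all 4 anti-YTHDF1 lists.

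Of the 20 regions that all 4 anti-ARID1A lists outside WT held, the strongest lay within 1 Mb of such a stretch. The region chr4:49091290-49093775 stood at percentile 96.6 and 94.4 in YTHDF1-KO, 99.7 and 82.8 in siARID1A and 90.8 and 91.0 in WT anti-YTHDF1 lists. In anti-ARID1A lists it stood at 91.9 and 53.0 in YTHDF1-KO and at 57.6 and 42.3 in siARID1A cells. The region chr12:37237123-37238675 had 97.5, 91.5, 95.2, 84.1, 78.2 and 84.7 in the anti-YTHDF1 lists in the same order, and 69.8, 76.4, 62.8 and 82.6 in the anti-ARID1A lists. The chromosome 12 region stood above the middle of every list that held it, and the chromosome 4 region in all of them but siARID1A anti-ARID1A replicate 2.

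Regions that followed 1 condition were few. Neither YTHDF1-KO and both siARID1A anti-YTHDF1 lists held 24, 4.11%, against 2.66% of all merged regions. The reverse held for 15, 2.57%, against 1.01%. Without chromosomes 2, 9 and 17 the first pattern was met by 11 of 454 regions, 2.42%, and the reverse by 12, 2.64%. Shares over all merged regions were not computed without these chromosomes. Both directions occurred, and with 2 lists each no region can be tested alone.

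The strongest of the 24 lies in NKD2, an inhibitor of Wnt signalling that binds Dishevelled. At chr5:1022907-1026349 it stood at percentile 50.7 and 58.1 in siARID1A cells, against 93.5 and 98.9 in WT cells, and no anti-ARID1A list held it. The next, chr17:795360-797722, lies outside genes and stood at 88.5 and 66.3 in siARID1A, against 73.3 and 64.5 in WT cells. Of the 15, the strongest lies in CAMTA1, a calmodulin-binding transcription activator, at chr1:7114573-7115628. It stood at 85.0 and 92.6 in YTHDF1-KO, against 79.2 and 81.9 in WT cells. A region in DLGAP2, a postsynaptic scaffold gene, at chr8:991176-992543, stood at 91.2 and 58.5 in YTHDF1-KO, against 40.4 and 83.7 in WT cells.

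With anti-ARID1A, both YTHDF1-KO and neither siARID1A list held 54 regions, 9.25%, against 9.94% of all merged regions. The reverse held for 5, 0.856%, against 0.441%. The first share lies near that of all merged regions, and the second rests on 5 regions.

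Regions that no other list held include the gene starts of RAB11FIP3, a RAB11 effector of endosome recycling, SLC6A7, a proline transporter of neurons, and VTCN1, and an end of FAM90A5. RAB11FIP3 stood at percentile 71.2 and 29.8, SLC6A7 at 33.5 and 58.4, FAM90A5 at 21.6 and 67.7 and VTCN1 at 10.2 and 54.4 in WT anti-YTHDF1 replicates 1 and 2. The replicates rank the same region far apart. Outside gene starts, the strongest were chr10:46757302-46759913, at 77.0 and 64.8, and chr9:135228618-135231390, at 47.9 and 88.9. All of these rest on WT peaks of 3 to 5 steps.

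In the anti-YTHDF1 lists that held them, the regions' peaks had median percentiles of 66.7 and 64.1 in YTHDF1-KO and 65.1 and 53.6 in siARID1A cells, over 160, 166, 178 and 164 regions. In anti-ARID1A lists the medians were 36.3 and 40.5 in YTHDF1-KO and 42.5 and 35.8 in siARID1A cells, over 212, 192, 91 and 110 regions. Each list held a different set of the regions and the lists differ in length, so these medians describe each list alone.

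Chromosome 17 held 8.90% of the 584 regions, against 5.98% of all merged regions and 10% of regions of all 4 WT lists. The 52 regions there were held by anti-ARID1A lists at 38.5% and 42.3% in YTHDF1-KO and 11.5% and 19.2% in siARID1A cells, the same order as over all 584. This order was not met on every chromosome. On chromosome 2, with 50 regions, the anti-ARID1A shares overlapped, with 22% and 12% in YTHDF1-KO and 14% and 22% in siARID1A cells. Anti-YTHDF1 lists held 10% and 22% there in YTHDF1-KO and 32% and 38% in siARID1A cells.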

How the data were processed

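A549 CUT&Tag peak lists of 12 samples were used, 1 list per sample, grouped by the sample titles. Of 18 samples, 6 IgG samples were not analysed here. The submitters' processing notes name the peak caller SEACR 1.3, the aligner Bowtie2 2.4.2, the read trimmer fastp 0.23.2, the toolkits SAMtools 1.9, deepTools 3.5.2 and bedtools 2.30.0, and hg38 (GRCh38). Settings, the use of IgG and the handling of reads with several matches were not stated there. The deposited files give a position, total signal, highest signal and its place, with a scaling by the authors that differs between libraries. In each list 100% of highest signals were whole multiples of 1 step (tolerance 0.01 step or 0.01%). Signal was therefore used only to rank and filter peaks within a list. Sequencing depth is unknown.

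Peaks of the 4 WT lists were merged where they overlapped or touched. Shares of regions held were compared over lists by exact permutation tests, two-sided, with a threshold of 0.05 (Python 3.11.15, numpy 2.4.6, pandas 2.3.3), which were tested on simulated lists. Gene positions, starts (15812 of 19974 protein-coding genes) and sequences came from RefSeq, GRCh38.p14. For the other 4162 genes both gene ends were used. A few of the gene table's positions may belong to alternate sequences. Coordinates are 1-based. The regions, gene lists and tests were chosen with earlier results of these data known. Regions that met a pattern of lists, and the genes at them, were named by mean percentile of total signal, strongest first. Other genes were named outside this rule, among them CLSPN, SEC22B, DCAF1, VPS53, the gene-family examples other than FAM90A5, DXO and WHR1. Their naming does not rank them by signal. Alternatives covered overlap, width, peak strength, list length, merging, distance to anti-ARID1A peaks, chromosomes and leaving out each list. Region sequences and motifs beyond promoters were not analysed here. A further haematopoietic marker gene is not reported here.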

Additional observations from a re-analysis of the deposited data

Results flagged for a closer look

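The contrast between the antibodies had opposite signs in the modified cells. The share of the 584 regions held, anti-YTHDF1 minus anti-ARID1A, was -6.68 percentage points in YTHDF1-KO cells, where both anti-ARID1A lists held more, and 12.1 points in siARID1A cells, where both held less. The difference of -18.75 points had p = 0.111 by an exact permutation test, two-sided, with the conditions permuted within each antibody, where the smallest p is 0.0556. The anti-ARID1A lists covered 241 and 234 Mb in YTHDF1-KO cells and 99.0 and 128 Mb in siARID1A cells. With lists of equal length, a cut that took more peaks from the anti-ARID1A lists, anti-YTHDF1 lists held more of the regions in both conditions.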

How the results depend on the processing

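The anti-ARID1A difference between YTHDF1-KO and siARID1A cells and the difference from regions of 1 WT anti-YTHDF1 list kept their sign under all alternatives run, but the first was 17.4 points as deposited and 1.80 with lists of equal length. The mean difference from regions of all 4 WT lists also kept its sign, though it shrank to -0.954 points when 50% of a region had to be covered. Under that reading its sign was reversed in both YTHDF1-KO lists. In all designs but 4 lists against 4 the smallest p is above 0.05, so those results could not pass the threshold under any alternative. Anti-YTHDF1 minus anti-ARID1A was 2.70 points as deposited, 16.3 with stricter peaks, 17.1 with lists of equal length and -2.03 without grouped or gene-free-stretch regions. It ran between -9.13 and 6.16 with a list or WT replicate left out, and was -0.742 without siARID1A anti-ARID1A replicate 1, -4.78 without WT replicate 1 and -9.13 without WT replicate 2. The anti-YTHDF1 difference, YTHDF1-KO minus siARID1A, was -1.37 points, but 0.942 with 50% of a region covered, 1.26 with stricter peaks, 1.63 with equal lists, 0.670 with peaks within 500 bp merged, 0.330 without chromosomes 2, 9 and 17 and 0.737 without grouped or gene-free-stretch regions. The causes were not tested.

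The share held by no list of the modified cells was 38.4% with 50% of a region covered and 37.7% with equal lists, and 24.5% to 57.2% with a list or WT replicate left out. The share held by no other anti-YTHDF1 list ran from 41.8% to 76.0% with one left out. That held by all 4 anti-YTHDF1 lists was 2.397% with 50% covered, 3.77% in 200 bp at the highest signal, 15.97% with stricter peaks, 1.97% without grouped or gene-free-stretch regions, and 0.949% to 10.3% with one left out. With no anti-ARID1A list besides, it was 2.52% with stricter peaks, 3.08% with equal lists, 0% without grouped or gene-free-stretch regions, and 0.0956% to 1.88% with one left out. The share held by all 4 anti-ARID1A lists was 0.856% with 50% covered, 2.23% in 200 bp, 0.685% with equal lists, 2.11% with peaks within 500 bp merged, 1.72% without grouped or gene-free-stretch regions, and 1.27% to 7.36% with one left out. Neither YTHDF1-KO and both siARID1A anti-YTHDF1 lists held 2.23% with 50% covered, 2.42% without chromosomes 2, 9 and 17, 2.46% without grouped or gene-free-stretch regions, and 1.07% to 11.6% with one left out. The reverse ran from 0.675% to 9.08% with one left out. Leaving out a list loosens a pattern that asks for every list, and leaving out a WT replicate loosens the rule. With a window of 3 kb, 9.59% of regions lay at a gene start.

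Same-numbered lists did not deviate together (correlation over regions 0.0465 for anti-YTHDF1 and -0.00899 for anti-ARID1A). With the replicate number as a block, p was 0.625 for the antibodies (2.70 points), 1.0 for anti-YTHDF1 (-1.37 points) and 0.5 for anti-ARID1A (17.4 points). The alternatives without grouped or gene-free-stretch regions and within 1 width class were chosen after seeing the data. Unknown depth limits all shares, because a region absent from a list may be a peak below its threshold.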
